A study of Mus musculus with 10 samples.

Results

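A set of 10 genes that mark monocytes and the resident macrophages of bone marrow was followed across 10 mouse RNA libraries. The monocyte genes are 4, Cd14, Ccr2, Csf1r and Lyz2, and the macrophage genes 6, Cd68, Adgre1, C1qa, C1qb, C1qc and Vcam1. They were chosen by symbol among the 46959 gene entries of the count table, and all 10 members were found. In femoral cells both sets were well above their levels in cultured spleen cells. Among the femoral groups they did not move as 1 block: Cd14, Ccr2 and Csf1r were higher in deltaEmu than in RAG2_deficient, whereas C1qa, C1qb, C1qc and Vcam1 were lower, and Cd68 and Adgre1 differed by 1.18-fold and 1.17-fold without passing the test.

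The study compared 5 groups of 2 libraries, each made from pooled RNA of mice aged 8 to 10 weeks. The groups 2KO, deltaEmu and RAG2_deficient are labelled femoral B cells of C57BL6 mice and were lysed without culture. No label says what 2KO stands for. The design text speaks of mice lacking the IgH enhancer 5′Eµ and the 3′RR as well as of mice lacking RAG2. Wild-type femoral cells were not analysed here. The 2 spleen groups, LPS_IL4 and LPS_IL4_SAHA, are wild-type CD43- cells kept for 48 h with lipopolysaccharide (LPS) at 5 µg/ml and interleukin 4 (IL4) at 20 ng/ml, the second group also with the histone deacetylase inhibitor SAHA (200 nM in the sample names, 200 ng/ml in the treatment protocol). Their strain is given as 129, whereas the growth protocol names KOKI mice and BLACK-6 controls. How the femoral cells were purified is not given in the sources used here.

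Sample titles and descriptions each carry a number that could match a sample to its count column, and the 2 numbers lead to the same column for 2 samples only and to another for 8. The number that ends each description was used. With it Rag1, a recombinase gene of immature lymphocytes, lay between 141 and 919 CPM (read counts scaled to library size) in the 6 femoral libraries and at no more than 0.0418 CPM in the 4 spleen libraries. Every comparison here would fail if the titles' numbers were the correct ones. Titles and descriptions also disagree on which spleen samples received SAHA, and the descriptions were followed. Library totals ran from 17710154 to 25544275 counts.

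Cells labelled B cells held RNA of several other lineages in the femur. The summed level of 11 B lineage genes was 546 to 2609 CPM in the femoral libraries, while 12 neutrophil genes summed to between 7048 and 21156 CPM and 10 erythroid genes to between 2482 and 15493 CPM in the same libraries. In the spleen libraries the B lineage sum was 2851 to 3101 CPM, against at most 0.501 CPM for the neutrophil genes. Sex-linked genes also separated the femoral groups: the Y-linked Ddx3y was at 43.9 to 69.2 CPM in 2KO and deltaEmu and at 0.237 and 0 CPM in RAG2_deficient, while Xist was at 677 to 2747 CPM in all 6 femoral libraries and at no more than 0.201 CPM in the spleen. The part of sex in the femoral differences cannot be told apart from genotype in comparisons with RAG2_deficient.

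Monocytes leave the marrow for the blood and enter inflamed tissue. They carry CCR2, the receptor for the chemokine CCL2 that lets them exit the marrow, CD14, which presents LPS to the receptor TLR4, and CSF1R, the receptor for the growth factors CSF1 and IL34 on which monocytes and macrophages depend. Lyz2 encodes lysozyme M, a bacteriolytic enzyme of granulocytes as well as monocytes and macrophages. Marrow macrophages sit among developing blood cells, clear dying cells and the nuclei that red cell precursors shed, and recycle iron. Adgre1 encodes F4/80, the surface protein by which mouse macrophages are usually recognised, Cd68 a lysosomal glycoprotein, and C1qa, C1qb and C1qc the 3 chains of C1q, which opens the classical complement pathway and tags dying cells. VCAM1 is an adhesion protein that binds the integrin α4β1 and is carried by marrow macrophages as well as by stromal and endothelial cells.

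The 3 C1q genes are neighbours, and their levels followed one another closely over the 6 femoral libraries. On mm10, in the deposited table's coordinates, they lie on chromosome 4 within 18.7 kb on the minus strand: C1qb at chr4:136880129-136886187, C1qc at chr4:136889804-136893065 and C1qa at chr4:136895917-136898803, each with 3 exons. The start regions of C1qb and C1qc are shown beside that of Ccr2, a monocyte gene that moved the other way. The windows do not sit alike on the genes as counted. The deposited table starts Ccr2 at chr9:124101950, upstream of the RefSeq start, so nearly all of the Ccr2 window lies within the gene. It starts C1qc at chr4:136893065, so part of the C1qc window before the RefSeq start lies within that gene as well. Each line runs 5′ to 3′ on the gene's strand from 250 bases before to 50 bases after the RefSeq start (GRCm38.p6), and capitals mark GAGGAA, the core of the binding motif of PU.1, a transcription factor of the myeloid lineage, read on either strand.
C1qb, chr4:136886151-136886450: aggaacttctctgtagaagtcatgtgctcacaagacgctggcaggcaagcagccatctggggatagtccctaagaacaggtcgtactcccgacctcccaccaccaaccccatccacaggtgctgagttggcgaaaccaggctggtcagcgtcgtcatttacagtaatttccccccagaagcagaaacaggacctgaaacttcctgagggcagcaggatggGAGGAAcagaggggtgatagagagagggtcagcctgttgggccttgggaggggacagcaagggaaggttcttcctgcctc
C1qc, chr4:136892865-136893164: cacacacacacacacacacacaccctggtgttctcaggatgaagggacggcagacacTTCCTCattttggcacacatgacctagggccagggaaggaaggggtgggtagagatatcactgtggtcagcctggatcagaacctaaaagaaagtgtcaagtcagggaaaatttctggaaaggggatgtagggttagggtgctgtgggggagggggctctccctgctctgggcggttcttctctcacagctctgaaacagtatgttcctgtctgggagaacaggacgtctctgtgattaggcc
Ccr2, chr9:124101933-124102232: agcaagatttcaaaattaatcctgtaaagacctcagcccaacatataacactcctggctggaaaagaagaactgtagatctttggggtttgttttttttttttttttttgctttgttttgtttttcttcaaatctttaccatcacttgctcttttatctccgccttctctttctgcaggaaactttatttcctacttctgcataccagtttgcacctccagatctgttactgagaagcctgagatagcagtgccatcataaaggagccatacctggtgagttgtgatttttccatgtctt

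The C1qb window held 1 match to the PU.1 core, 30 bases before the start on the gene's own strand, and the C1qc window held 1, 193 bases before the start on the opposite strand. In the Ccr2 window, which lies mostly within the gene as counted, these letters were not found. The same search covered AP-1 (TGAGTCA) and C/EBP (TTGCNNAA), neither of which was found in these 3 windows. Of the 32851 RefSeq promoter windows of this length, 28.3% held the PU.1 core, 5.2% the AP-1 letters and 10.8% the C/EBP letters, so that a match to the PU.1 core is common. Promoter windows were searched for 5 of the 10 members, and the monocyte genes Cd14 and Csf1r were not among those searched. Of the pair searched but not shown, Lyz2 held none of the 3 motifs, while Cd68 held 2 matches to the PU.1 core, 2 to AP-1 and 1 to C/EBP. A match is a description of letters and not a measured site, and none of the motifs overlapped another.

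**Figure D1:**
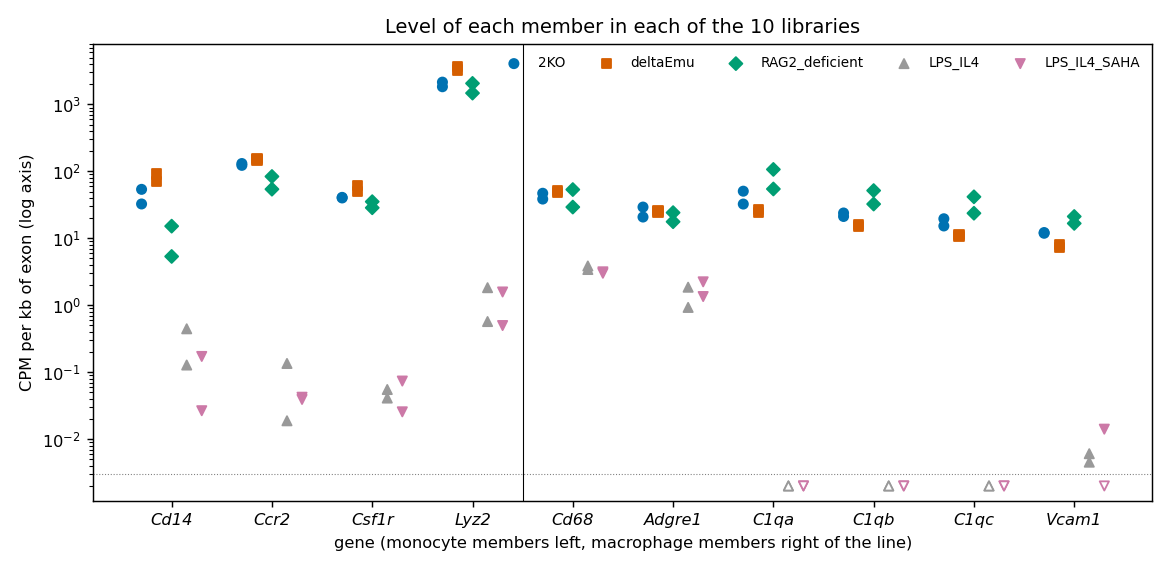
Level of each member in each of the 10 libraries, in CPM per kb of exon on a log axis, with 1 symbol per library, coloured and shaped by group, and with the monocyte genes left and the macrophage genes right of the vertical line. Hollow symbols below the dotted line are libraries with 0 counts, placed there without a value, and where the 2 libraries of a group are both at 0 their symbols coincide. The 6 femoral libraries lie above the 4 spleen libraries for every member, and Cd68 averages 3.64 and 3.08 CPM per kb in the spleen groups.

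Cd14 varied most among the monocyte genes. It stood at 84.8 and 51.3 CPM in 2KO, at 144 and 112 CPM in deltaEmu and at 23.9 and 8.43 CPM in RAG2_deficient. The 3 groups did not overlap, and RAG2_deficient replicate 2 lay above replicate 3. With 2 libraries a group, a lack of overlap says little by itself, here and below, and its share over all genes was not computed. Cd68, for instance, did not overlap between 2KO and deltaEmu, where edgeR's quasi-likelihood test gave an adjusted p of 0.779. Cd14 was 7.74-fold higher in deltaEmu than in RAG2_deficient (log2 difference 2.95 ± 0.47 SE, adjusted p = 0.00905, edgeR's quasi-likelihood test with Benjamini-Hochberg adjustment over 16538 genes) and higher in 2KO than in RAG2_deficient (2.06 ± 0.45, adjusted p = 0.0493). Between 2KO and deltaEmu the difference was -0.9 ± 0.43 on the log2 scale and did not pass the test (adjusted p = 0.377). The 2KO call did not outlast the loss of 1 library of 2KO or deltaEmu: without 2KO replicate 1 or 3, or without deltaEmu replicate 5 or 7, its adjusted p was 0.152, 0.0792, 0.118 and 0.117.

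Ccr2 followed the same order of groups with a smaller range. Its levels were 838 and 783 CPM in 2KO, 997 and 949 CPM in deltaEmu, and 536 and 347 CPM in RAG2_deficient. No 2 groups overlapped. It was 2.14-fold higher in deltaEmu than in RAG2_deficient (log2 difference 1.1 ± 0.27, adjusted p = 0.0451), while 2KO lay 0.85 ± 0.27 above RAG2_deficient without passing the test (adjusted p = 0.134). The deltaEmu call was lost in the fit of all 10 libraries (adjusted p = 0.13), without 2KO replicate 1 or 3 (0.103 and 0.104) and without deltaEmu replicate 5 or 7 (0.268 and 0.199).

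Csf1r was at 199.6 and 196 CPM in 2KO, at 302 and 247 CPM in deltaEmu, and at 172 and 139.5 CPM in RAG2_deficient. The groups were again apart, with deltaEmu highest. It was 1.71-fold higher in deltaEmu than in RAG2_deficient (log2 difference 0.77 ± 0.2, adjusted p = 0.0492), a call close to the threshold that several alternative settings lost. Its annotated span overlaps Hmgxb3 on the other strand, and the strand setting of the counting is not given in the sources used here.

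Lyz2 was the most abundant member in every femoral library, at 2726 and 2327 CPM in 2KO, 4695 and 4137 CPM in deltaEmu and 2613 and 1868 CPM in RAG2_deficient. Only deltaEmu stood apart, and 2KO and RAG2_deficient overlapped. Its log2 difference of 0.94 ± 0.33 between deltaEmu and RAG2_deficient did not pass the test (adjusted p = 0.127), nor did that of -0.79 ± 0.33 between 2KO and deltaEmu (adjusted p = 0.305). The near-identical Lyz1, with which reads may be shared, was at 0.534 to 1.62 CPM in the femoral libraries.

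Among the macrophage genes the C1q chains were highest in RAG2_deficient. C1qa was at 52.6 and 33.8 CPM in 2KO, at 27.7 and 25.2 CPM in deltaEmu, and at 111 and 56.8 CPM in RAG2_deficient. C1qb was at 26 and 23.1 CPM in 2KO, 17.5 and 16.5 CPM in deltaEmu, and 56.2 and 35.4 CPM in RAG2_deficient, and C1qc at 37.9 and 29.6, 22.1 and 20.6, and 80.5 and 45.8 CPM in the same order. For all 3 chains no 2 groups overlapped, deltaEmu was lowest and its libraries differed least, and RAG2_deficient replicate 2 was the highest library. C1qa was 3.25-fold lower in deltaEmu than in RAG2_deficient (adjusted p = 0.0195), C1qb 2.76-fold lower (adjusted p = 0.00875) and C1qc 3.04-fold lower (adjusted p = 0.0113). In 2KO the chains lay 0.93 to 0.98 below RAG2_deficient on the log2 scale with adjusted p of 0.146, 0.0649 and 0.0977, and none passed. The ratio of C1qa to C1qb counts stayed between 1.47 and 2.02 over the 6 femoral libraries, while the sum of the 3 chains ran from 62.3 to 248 CPM.

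In deltaEmu against RAG2_deficient, Vcam1 gave the smallest adjusted p of the 10 genes. It was at 106 and 108 CPM in 2KO, at 71.9 and 64.7 CPM in deltaEmu, and at 188 and 148 CPM in RAG2_deficient. The 3 groups were apart, with RAG2_deficient highest, and Vcam1 was 2.53-fold lower in deltaEmu than there (log2 difference -1.34 ± 0.18, adjusted p = 0.00477). The differences of 2KO from RAG2_deficient (-0.68 ± 0.18, adjusted p = 0.077) and from deltaEmu (0.66 ± 0.18, adjusted p = 0.105) did not pass. An antisense gene, Gm43109, overlaps it, and reads of the pair cannot be told apart unless the counting used strand.

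Cd68 and Adgre1, the 2 general macrophage markers, showed no call among the femoral groups. Cd68 was at 59.2 and 48.5 CPM in 2KO, 64.4 and 61.6 CPM in deltaEmu, and 67.2 and 36.8 CPM in RAG2_deficient, whose 2 libraries enclosed all others. Adgre1 was at 67.5 and 95.2 CPM in 2KO, 80.2 and 83.7 CPM in deltaEmu, and 78.6 and 57.3 CPM in RAG2_deficient. Between deltaEmu and RAG2_deficient the log2 difference was 0.24 ± 0.27 for Cd68 (adjusted p = 0.625) and 0.23 ± 0.22 for Adgre1 (adjusted p = 0.565). A p that misses the threshold does not show that the groups were equal.

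**Figure D2:**
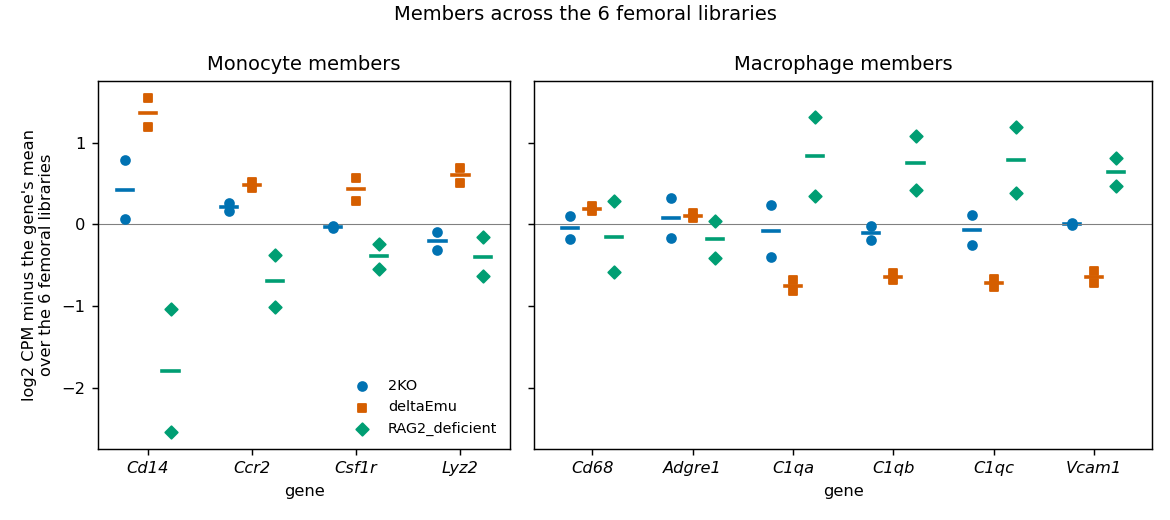
Level of each member in each of the 6 femoral libraries as log2 CPM minus that gene's mean over the 6 libraries, with 1 symbol per library, a short bar at each group's mean and the 2 sets in separate panels. The monocyte genes are highest in the deltaEmu libraries and lowest in RAG2_deficient replicate 3, while C1qa, C1qb, C1qc and Vcam1 are lowest in deltaEmu and highest in RAG2_deficient replicate 2, and Cd68 and Adgre1 follow neither order.

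Per length, in CPM per kb of exon, the order of the members differed between groups. Lyz2 was first in all 3 femoral groups, at 1995 ± 223 in 2KO, 3488 ± 312 in deltaEmu and 1769.8 ± 416 in RAG2_deficient (SD, n = 2). Ccr2 was second in 2KO (127 ± 6.03) and deltaEmu (152 ± 5.39). In RAG2_deficient C1qa (80.6 ± 36.8) and Ccr2 (69.1 ± 21) followed Lyz2 and did not differ beyond their spread. Cd14 followed Ccr2 in deltaEmu (81.5 ± 14.5 CPM per kb) and last in RAG2_deficient (10.3 ± 6.98). In 2KO, Cd14 (43.3 ± 15.1), Cd68 (42.9 ± 6.04), C1qa (41.6 ± 12.8) and Csf1r (40.5 ± 0.543) lay within each other's spread. Vcam1 was last in 2KO (12.1 ± 0.163) and deltaEmu (7.7 ± 0.576).

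In deltaEmu against RAG2_deficient, 3 of the 4 monocyte genes rose and 4 of the 6 macrophage genes fell. Over all genes tested in this comparison 9.81% were called, 4.42% as higher and 5.39% as lower. The median log2 difference was 1.02 over the monocyte set and -1.4 over the macrophage set, against -0.01 over all genes. In 2KO against RAG2_deficient, Cd14 alone passed, where 4.31% of all genes were called and 1.26% were higher. The medians were 0.58 for the monocyte set, -0.8 for the macrophage set and 0 for all genes. These comparisons share the RAG2_deficient libraries, so their likeness is not independent. In 2KO against deltaEmu, 0 of 10 members were called by edgeR, where 3.7% of all genes were, while 5 members had an unadjusted p under 0.05 and DESeq2 called 2, Vcam1 as higher and Lyz2 as lower. Either RAG2_deficient library enters this comparison only through the shared spread, the scaling and the genes tested. Leaving out replicate 2 or 3 left 17471 and 17222 genes tested, against 16538, and changed the members called. In the main fit of 2KO against deltaEmu the medians were -0.63, 0.6 and -0.01 for the monocyte set, the macrophage set and all genes. With 2 libraries a group, an exact permutation test of a single gene cannot give a p below 0.333, and the spread is that between pools.

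**Figure D3:**
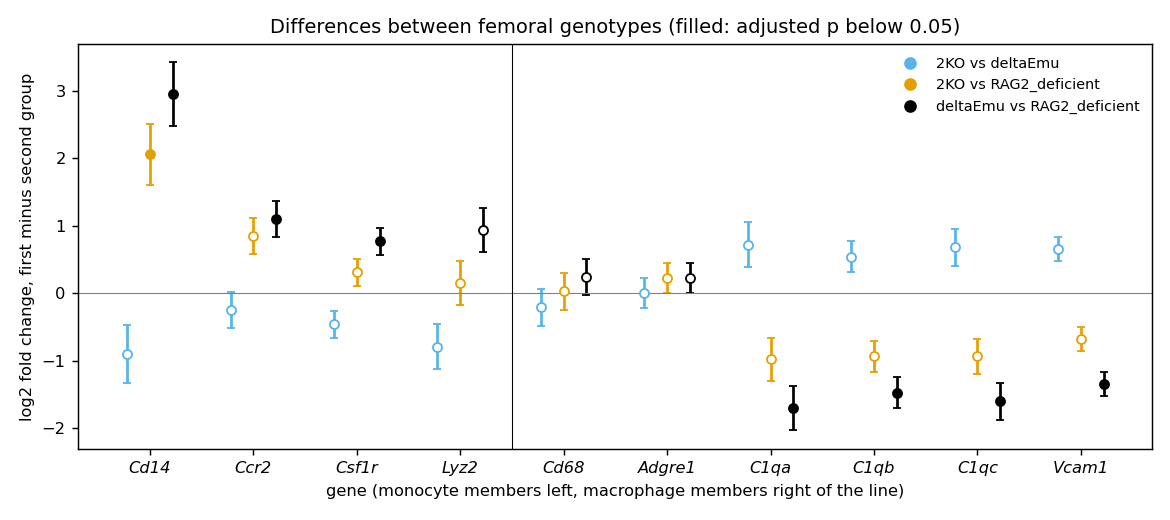
Log2 difference (first minus second group) of each member in the 3 femoral comparisons, coloured by comparison, with bars of 1 SE on either side from edgeR and symbols filled where the adjusted p was below 0.05. In deltaEmu against RAG2_deficient Cd14, Ccr2 and Csf1r are filled above 0 and C1qa, C1qb, C1qc and Vcam1 below it, in 2KO against RAG2_deficient Cd14 alone is filled, and in 2KO against deltaEmu none is.

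The calls in deltaEmu against RAG2_deficient depended on both deltaEmu libraries. Without deltaEmu replicate 5 or replicate 7, which leaves 1 library in that group, 0 members were called, and 7 had an unadjusted p under 0.05 each time. Of all genes 1.49% and 1.84% were called in these fits. In these fits the log2 difference was 2.78 and 3.11 for Cd14 and -1.4 and -1.28 for Vcam1. Without RAG2_deficient replicate 2, 9 members were called, where 30.9% of all genes were, and without replicate 3, 6, where 8.83% were.

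Levels of the 2 sets moved with those of other cell types. The 12 neutrophil genes summed to 9230.2 and 11082 CPM in 2KO, 18412 and 21156 CPM in deltaEmu and 7048 and 7877 CPM in RAG2_deficient at their lowest and highest, the order of groups seen for Cd14, Ccr2 and Csf1r. Of them, 6 of 12 were higher in deltaEmu than in RAG2_deficient, where 4.42% of all genes were, and edgeR called 0 of 12 in 2KO against RAG2_deficient, with 2 at an unadjusted p under 0.05. Neutrophils themselves express Lyz2 and Cd14. The 11 stromal and endothelial genes summed to between 730.4 and 949 CPM in 2KO, between 1138 and 1188 CPM in deltaEmu and between 3665 and 3828 CPM in RAG2_deficient, most of it Col1a1, which encodes a collagen chain. Of these, 7 of 11 were lower in deltaEmu than in RAG2_deficient and 5 of 11 lower in 2KO, where 5.39% and 3.05% of all genes were called lower. Between 2KO and deltaEmu the members of this list went different ways: Col1a1 averaged 614 CPM in 2KO and 949 CPM in deltaEmu and Dcn, a matrix proteoglycan gene, 8.6 and 18.2 CPM, whereas Cxcl12 averaged 106 and 77.5, Lepr 15.6 and 10.5, Kitl 8.97 and 6.22, and Cdh5 9.42 and 6.82 CPM, and of these Dcn alone was called. The 11 B lineage genes summed to between 546 and 917 CPM in 2KO, 640.1 and 993 CPM in deltaEmu, and 2327 and 2609 CPM in RAG2_deficient, the group in which the C1q genes and Vcam1 were also highest. This sum hides members that went the other way. In deltaEmu against RAG2_deficient 4 of the 11 were called lower and 3 higher, where 5.39% and 4.42% of all genes were. Ms4a1 averaged 19.8 CPM in deltaEmu and 0.727 CPM in RAG2_deficient, Cr2 4.22 and 0.162 CPM, and Fcer2a 2.76 and 0.137 CPM. The 10 erythroid genes summed to between 10469.6 and 15493 CPM in 2KO, 2482 and 2629 CPM in deltaEmu, and 3119.8 and 5742 CPM in RAG2_deficient. Of these, 9 of 10 were higher in 2KO than in deltaEmu and 4 of 10 higher in 2KO than in RAG2_deficient, where 1.79% and 1.26% of all genes were. In deltaEmu against RAG2_deficient 1 of 10 was lower, where 5.39% of all genes were. The part of these cell types in the members' differences was not tested. In bulk RNA, fewer cells of a type and less RNA per cell cannot be told apart.

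**Figure D4:**
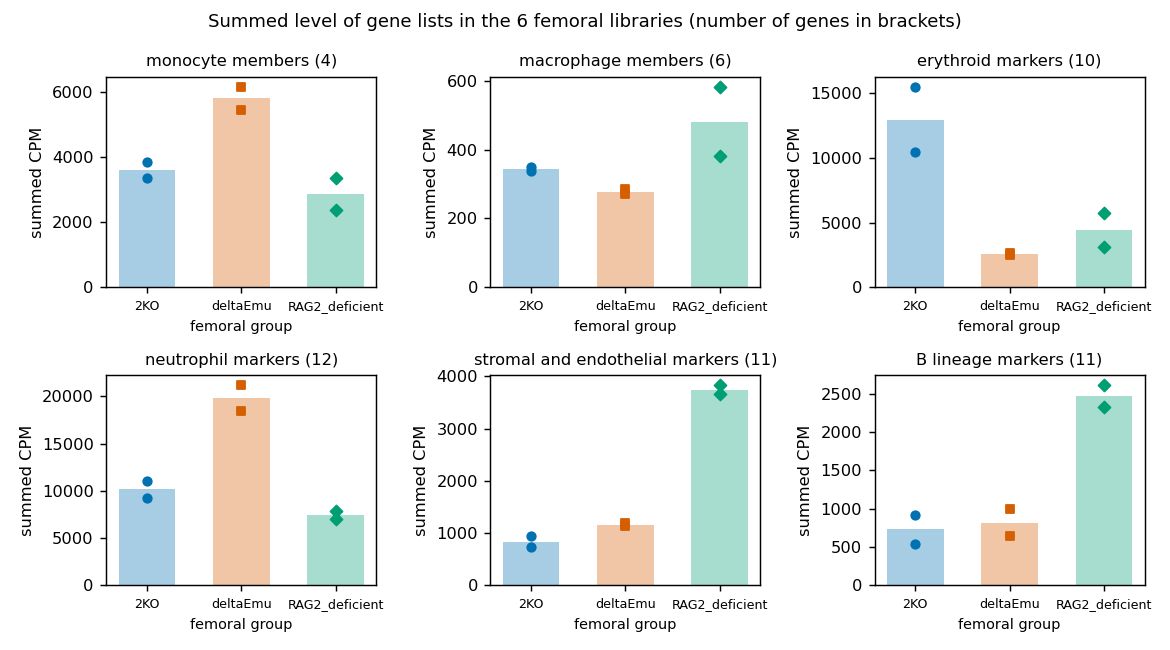
Summed CPM of 6 lists of genes in the femoral groups, with 1 symbol per library and bars at the mean of the 2 libraries, each panel with its own linear axis from 0. The neutrophil sum, like that of the monocyte members, is highest in deltaEmu (18412 to 21156 CPM), the stromal and endothelial sum in RAG2_deficient (3665 to 3828 CPM) and the erythroid sum in 2KO (10469.6 to 15493 CPM).

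Relative to Csf1r, which monocytes and macrophages both carry, the counts of the C1q genes and Cd14 differed between groups. Csf1r was itself 1.71-fold higher in deltaEmu than in RAG2_deficient. Dividing by it widens the C1q difference between these 2 groups and narrows that of Cd14, so the ratios are not independent of the levels above. The summed counts of the 3 C1q genes were 0.584 and 0.442 of those of Csf1r in 2KO, 0.223 and 0.253 in deltaEmu, and 1.44 and 0.989 in RAG2_deficient. The groups did not overlap. The ratio of Cd14 to Csf1r counts was 0.425 and 0.262 in 2KO, 0.478 and 0.454 in deltaEmu, and 0.139 and 0.0604 in RAG2_deficient, so that RAG2_deficient lay apart from the other femoral libraries. The ratio of Ccr2 to Csf1r counts was 4.2 and 4 in 2KO, 3.31 and 3.85 in deltaEmu, and 3.11 and 2.48 in RAG2_deficient, again lowest in RAG2_deficient and with a narrower range. That of Lyz2 to Csf1r ran from 11.9 to 16.8, and its groups RAG2_deficient and 2KO overlapped.

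Many other genes of marrow macrophages were, like the C1q chains, lower in deltaEmu than in RAG2_deficient. Of 21 such genes, 20 could be tested, and in deltaEmu against RAG2_deficient 11 fell, 0 rose and 9 were not called, with a median of -1.08, where 5.39% of all genes were called lower and 4.42% higher. Mrc1, which encodes the mannose receptor CD206, stood at 31.5 and 28.3 CPM in deltaEmu and at 91.8 and 83.5 CPM in RAG2_deficient (log2 difference -1.59 ± 0.18, adjusted p = 0.00229). Fcna, a lectin that activates complement, was at 11.6 and 10.1 against 75.4 and 43.9 CPM (-2.5 ± 0.33, adjusted p = 0.00432). Axl, a receptor for dying cells, fell by 1.42 on the log2 scale (adjusted p = 0.00543) and Siglec1, the sialoadhesin CD169 of marrow macrophages, by 1.65 (adjusted p = 0.0075). The other 7 that fell were Cd163, the receptor that takes up haemoglobin, Slc40a1, the iron exporter ferroportin, Hmox1, which breaks down haem, Spic, a transcription factor of iron-recycling macrophages, Mertk, Maf and Cd5l. The genes not called were mixed: Ctsd, Ctsb, Lgmn and Trem2 differed by between -0.02 and 0.05 on the log2 scale, Marco by -1.82, Apoe by -0.76 and Timd4 by -0.73, and Clec12a went the other way at 0.69 (adjusted p = 0.0843), higher in both deltaEmu libraries than in either RAG2_deficient library.

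In 2KO against RAG2_deficient 3 of the 20 macrophage genes fell, where 3.05% of all genes did: Mrc1 (-0.87 ± 0.17, adjusted p = 0.039), Fcna (-1.56 ± 0.31, adjusted p = 0.039) and Axl (-0.89 ± 0.2, adjusted p = 0.0484), and none rose. Mrc1 was at 55 and 43.1 CPM and Fcna at 25.7 and 15.4 CPM in 2KO, between the other 2 groups. In 2KO against deltaEmu 0 of 20 were called by edgeR, with 6 at an unadjusted p under 0.05 and 1 called by DESeq2. The count of 11 in deltaEmu against RAG2_deficient was 2 without deltaEmu replicate 5 and 1 without deltaEmu replicate 7. That of 3 in 2KO against RAG2_deficient fell without either 2KO replicate and without either deltaEmu replicate. Each of these fits leaves 1 library in a group. The share of all genes called fell in them too, so the loss of calls is not particular to this list.

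Other monocyte genes were mostly not called. Of 15, 1 rose in deltaEmu against RAG2_deficient, Klf4, a transcription factor needed for monocyte development, at 250 and 199.6 CPM against 80.6 and 47.9 CPM (log2 difference 1.77 ± 0.26, adjusted p = 0.00661). The list's median was 0.44. Ly6c2, the surface antigen of inflammatory monocytes, averaged 800 CPM in deltaEmu and 458 CPM in RAG2_deficient (0.76 ± 0.34, adjusted p = 0.203), and F13a1, which encodes a clotting factor chain abundant in monocytes, 1149 against 855 CPM (0.39 ± 0.26, adjusted p = 0.405). For edgeR's main fit a share of 1 in 15 is close to the background of 4.42%, and 4 had an unadjusted p under 0.05. DESeq2 called 4 of the 15, where it called 12.5% of all genes. Without the filter on low counts edgeR called 5, where 12% of all genes were called. Neither of the other femoral comparisons called any of the 15 by edgeR, with 1 at an unadjusted p under 0.05 in 2KO against RAG2_deficient and 3 in 2KO against deltaEmu. DESeq2 called 0 and 2 in the same order.

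The ligands and partners of the members were examined as a further list of 19, of which 16 could be tested in femoral cells. In deltaEmu against RAG2_deficient 2 rose and 1 fell, where 4.42% of all genes were called higher and 5.39% lower. In the fit of all 10 libraries 1 gene of the list was called, where 8.11% of all genes were. Ccl2, the ligand of CCR2, was at 43.4 and 35 CPM in deltaEmu, 13.8 and 9.92 CPM in 2KO, and 8 and 2.52 CPM in RAG2_deficient (2.88 ± 0.46 for deltaEmu against RAG2_deficient, adjusted p = 0.00945). C3, the complement component cleaved downstream of C1q, was at 735 and 542 CPM against 294 and 269 CPM (1.14 ± 0.23, adjusted p = 0.0215). Serping1, which encodes the inhibitor of the C1 proteases, was at 5.81 and 6.96 against 18.2 and 11.7 CPM (-1.26 ± 0.27, adjusted p = 0.0266). The C1 proteases C1ra and C1s1 were not called (adjusted p = 0.772 and 0.254), nor was Csf1, at 21.2 CPM in deltaEmu and 19.5 CPM in RAG2_deficient (adjusted p = 0.82). Tlr4, the LPS receptor that CD14 serves, was at 35.3 against 41.1 CPM (adjusted p = 0.445), and Itga4, the α4 chain of the VCAM1 receptor, at 465 against 716 CPM (adjusted p = 0.197). In both other femoral comparisons edgeR called 0 of 16, with 5 at an unadjusted p under 0.05 in 2KO against RAG2_deficient and 2 in 2KO against deltaEmu. DESeq2 called 0 and 2 there.

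The genes whose pattern over the 6 femoral libraries was most like the mean of the monocyte set were Zfp622, Sec23b, H2-Ab1, Fos and Pdia6, with Pearson's r of 0.997 to 0.999 on log2(CPM + 1) among 10847 genes. The members' own r with that mean ran from 0.912 for Lyz2 to 0.993 for Cd14. Fos, an immediate early gene and a subunit of AP-1, was at 929 and 786 CPM in 2KO, 2216 and 1685 CPM in deltaEmu, and 383 and 164 CPM in RAG2_deficient. H2-Ab1, an MHC class II chain, was at 134 and 106 CPM in 2KO, 217 and 192 CPM in deltaEmu, and 74.6 and 43.8 CPM in RAG2_deficient, but at 588 to 1011 CPM in the spleen, where the monocyte genes were lowest. The 5 genes most like the macrophage set were Il11ra1, Pappa, Pld3, D13Ertd608e and Col4a2, with r from 0.979 to 0.993, and Col4a2 encodes a basement membrane collagen. Within the macrophage set the r with its mean was 0.98 to 0.988 for the C1q chains, 0.936 for Vcam1, 0.052 for Cd68 and -0.243 for Adgre1. In both sets each member is part of the mean it is set against, which raises its r. The 3 C1q chains, which moved together, and Cd14, with its wide range, weigh most in their means. Their high r was therefore in part set in advance. These values rest on 6 libraries in 3 groups of 2, which share their depth scaling, and describe them only.

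In cultured spleen cells 7 of the 10 genes were under 1 CPM in every library. C1qa, C1qb and C1qc had 0 counts in all 4 libraries, where 3 counts a library correspond to at most 0.161 CPM. Vcam1 had 1 count in each LPS_IL4 library and 3 and 0 in LPS_IL4_SAHA. Ccr2, Csf1r and Cd14 lay between 0.0418 and 0.861 CPM, and Lyz2 was at 2.31 and 0.723 CPM in LPS_IL4 and at 2 and 0.631 CPM in LPS_IL4_SAHA. Cd68 kept 4.3 and 4.86 CPM in LPS_IL4 and 3.97 and 3.78 CPM in LPS_IL4_SAHA, and Adgre1 6.02 and 3.01 CPM and 7.26 and 4.37 CPM. Per length, Cd68 was the first of the members in both spleen groups, at 3.64 and 3.08 CPM per kb.

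With SAHA none of the members passed the test. Only Lyz2 (log2 difference of LPS_IL4_SAHA from LPS_IL4 -0.21 ± 0.78, adjusted p = 0.965), Cd68 (-0.28 ± 0.29, adjusted p = 0.939) and Adgre1 (0.34 ± 0.45, adjusted p = 0.939) had enough counts to be tested. Among all 13913 genes tested edgeR called 0 (0%), with 187 at an unadjusted p under 0.05, and DESeq2 called 0 with 264. For the 3 members both tools called 0, and edgeR gave 0 at an unadjusted p under 0.05. The tested genes of the 3 further lists (10 monocyte, 11 macrophage and 9 ligand or partner genes) also gave 0 calls and 0 at an unadjusted p under 0.05 by edgeR, and 0 calls by DESeq2.

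All 10 members were higher in the femoral cells than in LPS_IL4, in a fit of all 10 libraries where 61.2% of 17483 genes were called and 34.6% were higher. Lyz2 was higher by 10.95, Ccr2 by 10.58, Csf1r by 9.75 and Cd14 by 6.92 on the log2 scale. Cd68 was 12.2-fold and Adgre1 17.2-fold higher. C1qa, C1qb and C1qc were at least 363-fold, 207-fold and 279.7-fold higher, set against 3 counts a library. For Vcam1, with 2 counts in LPS_IL4, the ratio was 2468 with a 95% exact interval of 683 to 20383 that covers counting error only. The median log2 difference was 10.16 for the monocyte set and, with these 4 genes at their bound or ratio, 7.91 for the macrophage set, against 0.15 over all genes. Femoral and spleen cells differ in tissue, strain label, sex-linked genes and culture at once, and these cannot be told apart.

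Most of the further genes were higher in femoral cells as well. Of 15 other monocyte genes 12 were higher and 1, Ms4a4c, was lower at 97.7 against 137 CPM (adjusted p = 0.0494), where 34.6% of all genes were higher and 26.6% lower. The higher ones included F13a1 at 1002 against 0.0401 CPM, Cx3cr1, a chemokine receptor of patrolling monocytes, at 41.3 against 0.047 CPM, Fcgr3, an Fc receptor, at 106 against 0.356 CPM, and Itgam, the integrin chain CD11b, at 264 against 3.24 CPM. Of 20 macrophage genes tested 19 were higher, among them Slc40a1 at 94.2 against 0 CPM, Clec12a at 189 against 1.2 CPM, Mrc1 at 55.5 against 0.543 CPM and Axl at 60.9 against 4.54 CPM. The exception was Lgmn, a lysosomal protease, at 42 against 84.7 CPM (-1.01 on the log2 scale, adjusted p = 0.000758). Of 16 ligands and partners 11 were higher and 0 lower, with C3 at 438 against 0.504 CPM, Itgb7 at 169 against 13.4 CPM, Lbp, the LPS-binding protein, at 31 against 0 CPM and C4b at 12.5 against 0.134 CPM.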

How the data were processed

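RNA was extracted with a miRNeasy kit and 500 ng entered TruSeq Stranded Total RNA libraries, per the labels' protocols. The authors deposited unnormalized counts of reads for each gene in 1 table, whose 100 control sequence entries were left out here. The submitters' processing notes name STAR 2.4.0a, featureCounts and Subread 1.4.6-p1, and the builds mm10 and GRCm38. Which annotation release and strand setting were used, and how multiply matching reads were handled, is not given in the sources used here. The deposited table also gives a length of merged exons per gene, used for CPM per kb. Columns were assigned by the index ending each description.

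In R 4.3.3, edgeR 4.0.16 (filterByExpr with minimum count 10, TMM, quasi-likelihood F test) was run on the 6 femoral libraries (3 residual degrees of freedom), the 4 spleen libraries (2) and, for femoral against LPS_IL4, all 10 (5). Genes were called at a Benjamini-Hochberg adjusted p of 0.05 over all genes tested, and ± is SE for log2 differences and SD (n = 2) for levels. Levels are CPM with TMM factors over the 10 libraries. Alternatives were DESeq2 1.42.0, no TMM scaling, no filter, leaving out immunoglobulin, mitochondrial and ribosomal RNA genes, all 10 libraries in 1 fit, leaving out each library, and a block for the spleen pools. Further named genes are, per comparison, up to 4 called genes with the smallest adjusted p from each of 3 lists, and the 5 genes with the highest r among those with a mean of at least 5 CPM. Genes outside this rule, such as Ly6c2, Csf1 and Lgmn, were added after their values were seen. Results for some items are not reported here. Members and lists were chosen with earlier results of these data known. Replicates 2 and 3 of RAG2_deficient, so numbered in the descriptions, are 1 and 2 in the titles. Each spleen pool is described as 3 samples while its name gives 2 numbers. P-values measure the spread between pools only. No 2 libraries of a group were identical. The pipeline was tested on simulated counts.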

Additional observations from a re-analysis of the deposited data

How the results depend on the processing

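All 10 members stayed higher in femoral cells than in LPS_IL4, and 0 were called for SAHA, under every alternative run. In 2KO against deltaEmu, where the main count was 0, DESeq2 called 2 members and dropping the filter on low counts 3. Members were called on leaving out a library only without either RAG2_deficient library, where the share of all genes called rose as well. In 2KO against RAG2_deficient, where the main count was 1, DESeq2 called 5, dropping the filter 6 and the fit of all 10 libraries 0 (Cd14 adjusted p = 0.0619). Leaving out a library moved this count either way, and it moved the share of all genes called too. In deltaEmu against RAG2_deficient 7 members were called: 8 with DESeq2 and without the filter, 6 without TMM scaling and without immunoglobulin, mitochondrial and ribosomal RNA genes, and 5 in the fit of all 10 libraries, with 0 to 9 on leaving out each library. Csf1r was lost under 4 of these (adjusted p = 0.065 without TMM scaling, 0.0528 without those genes, 0.0691 in the fit of all 10 libraries and 0.0685 without RAG2_deficient replicate 3), and both it and Ccr2 without either 2KO library. Ccr2 was lost in the fit of all 10 libraries too (adjusted p = 0.13). The share of all genes called moved as well. In deltaEmu against RAG2_deficient it was 9.81% in the main fit, 12.5% with DESeq2 and 12% without the filter. It was 9.6% there without TMM scaling and 8.11% in the fit of all 10 libraries. For 2KO against RAG2_deficient the shares were 4.31% in the main fit, 7.51% with DESeq2, 7.18% without the filter and 2.91% with all 10 libraries. For 2KO against deltaEmu they were 3.7%, 5.74% with DESeq2 and 5.6% without the filter. Leaving out 1 library leaves a group of 1, assumed to vary like the others. Tests of single members gave 440 unchanged calls, 31 gained, 28 lost and 14 changes of sign.

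The changes of sign were all of members not called. For 2KO against deltaEmu, Adgre1 (0) moved to 0 with DESeq2, 0 without immunoglobulin, mitochondrial and ribosomal RNA genes, -0.01 in the fit of all 10 libraries, -0.26 without 2KO replicate 3 and -0.04 without deltaEmu replicate 5, with -0.26 to 0.23 over all libraries left out. For 2KO against RAG2_deficient, Lyz2 was at -0.07 without RAG2_deficient replicate 3 (up to 0.41 without others), Cd68 at -0.12 without 2KO replicate 1 and -0.34 without RAG2_deficient replicate 3 (up to 0.52), and Adgre1 at -0.02 without 2KO replicate 3 (up to 0.47). For deltaEmu against RAG2_deficient, Cd68 was at -0.13 without RAG2_deficient replicate 3 (up to 0.73). For SAHA, Lyz2 was at 0.87 without LPS_IL4 pool 4_et_7 and 0.4 without LPS_IL4_SAHA pool 6_et_8 (down to -1.26), and Adgre1 at -0.07 without LPS_IL4 pool 6_et_8 and -0.06 without LPS_IL4_SAHA pool 4_et_7 (up to 0.94). The cause was not tested.

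Counts over all genes moved more. In 2KO against deltaEmu 612 genes were called, and 949 with DESeq2, 1537 without the filter, 399 without the immunoglobulin, mitochondrial and ribosomal RNA genes and 119 to 1587 on leaving out a library. In 2KO against RAG2_deficient 713 became 1242, 1971 without the filter and 153 to 3222, and in deltaEmu against RAG2_deficient 1622 became 3308 without the filter and 259 to 5401. For SAHA 0 became 145 without the filter, 2670 without LPS_IL4 pool 4_et_7 and 5 without LPS_IL4 pool 6_et_8. The pool names of the spleen groups are shared, and across 13913 genes the differences between the pools in LPS_IL4 and LPS_IL4_SAHA had r = -0.442. With the pool as a replicate block 0 members and 0 genes were called. With the pools crossed, a pairing added after seeing the data, 0 members and 0 genes were called too. The 2 pairings still differed: 1279 genes had an unadjusted p under 0.05 by edgeR with the pools crossed, against 104 with the pool as block. Low counts of the members limit the spleen values, where 7 of the 10 could not be tested in libraries of 20198437 to 25544275 counts.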
